A study of Homo sapiens with 9 samples.

Results

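The genes described here are PAPPA, a secreted protease of the insulin-like growth factor (IGF) system, its antisense transcript PAPPA-AS1, the IGF-binding proteins IGFBP2 to IGFBP7, and the receptors IGF1R and IGF2R. They are 10 of the 26625 genes with a RefSeq symbol in the count tables. They were chosen by symbol with their read counts in the A549 and HEK293T libraries in view, so the levels in these lines are given as a description. In the series, total RNA was reverse transcribed with adaptor-carrying oligo(dT) primers for a library method named CLT-seq. Counts came from 7 of its 9 libraries, and the other 2 were not used here. Of these, 6 were HEK293T, a wild-type human embryonic kidney line, made with the primers T12, T18 and T30 (12, 18 and 30 T and no anchor) and T18V, T18VN and T18VNN (18 T followed by 1, 2 or 3 anchor bases, where V is any base but T and N is any base). The other was A549, a wild-type human lung carcinoma line of epithelial origin, made with T12. HEK293T cells grew in high-glucose DMEM and A549 cells in F-12K, both with serum, so line and medium cannot be told apart.

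IGF1 and IGF2 signal through the receptor tyrosine kinase IGF1R, whereas IGF2R, which also carries mannose 6-phosphate-tagged enzymes to lysosomes, removes IGF2 from the cell surface. The binding proteins hold the ligands outside the cell and limit their access to IGF1R. PAPPA, or pappalysin-1, is a metalloproteinase known for cleaving IGFBP4 and IGFBP5, which frees the bound IGF. It was first known as a placental protein.

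Oligo(dT) primers anneal to runs of A, so the transcripts were searched for runs of at least 12 A, the length of the T12 primer. A GENCODE release 29 transcript within 5% of the deposited length was matched for 7 of the 10 genes (IGFBP3, IGFBP6 and IGFBP7 had none). Of these 7, PAPPA, IGFBP5 and IGF1R held such a run, and the longest run was 4 A in IGFBP2, 6 in IGFBP4, 7 in PAPPA-AS1 and 9 in IGF2R. Among 19060 genes matched in the same way, 8.57% held a run of 12 or more and 3.23% a run of 17 or more. The windows below show these runs in capitals, 5′ to 3′ in the sense of the transcript, because they are sites inside a transcript that could pair with the primer. All lie in the last exon after the coding sequence.
PAPPA, bases 7111 to 7140 of 10959: gcacttAAAAAAAAAAAAAAAAAgagacca
IGFBP5, bases 5976 to 6005 of 6215: tttgtgagAAAAAAAAAAAAAAgccgaaaa
IGFBP5, bases 5995 to 6024 of 6215: aaagccgAAAAAAAAAAAAAAAAcacctga
IGF1R, bases 7552 to 7581 of 12235: ttccctttAAAAAAAAAAAAAAggtattat
The runs are 17 A in PAPPA, 14 and 16 A in IGFBP5 and 14 A in IGF1R. In IGFBP5 they end 218 and 198 bases before the transcript end, against 3826 bases in PAPPA and 4662 bases in IGF1R.

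Library totals ran from 7491993 to 25578543 reads, and 1498191 (A549) to 5200798 (HEK293T T18) reads fell on genes. Levels are in CPM, reads per 1000000 reads on genes, and the floor of 3 reads was 0.577 to 1.35 CPM in HEK293T and 2.00 CPM in A549. Intervals are exact 95% intervals for counting error only, since PCR copies of a molecule may each be counted. HEK293T had 1 library with counts for each primer and A549 had 1 in all, so the difference between the lines has no replicate check and no test. The markers listed for each line were chosen with earlier results of these data known, so their levels are a description and no check of the labels. Of 9 A549 and epithelial markers, 8 were at least 2-fold higher in A549 than in HEK293T T12, as were 31.0% of all genes with at least 20 reads. The 9 summed to 10790.3 CPM in A549, against 12.5 to 32.7 CPM in HEK293T. All 6 HEK293T markers were at least 2-fold lower in A549, as were 29.2% of all genes. EPCAM was at 0 reads in A549, as were all 5 alveolar type 2 markers (SFTPA1, SFTPB, SFTPC, SFTPD and NKX2-1). All 5 placental trophoblast markers were at 0 reads in A549, and of 7 fibroblast markers COL1A2, COL3A1, DCN, POSTN and PDGFRB were at 0. The summed level of the 7 was 38.7 CPM in A549 and 9.49 to 31.7 CPM in HEK293T, most of it COL1A1, at 38.0 CPM in A549, 4.59 CPM in HEK293T T12 and up to 29.2 CPM in HEK293T.

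The comparison of A549 with HEK293T at the same T12 primer asked how the lines differ. On the log2(CPM + 1) scale, 8 of the 10 genes passed 2-fold towards A549 and 0 passed it towards HEK293T. All 10 had at least 20 reads in the higher library. Over the 10145 genes with that many reads, 31.0% passed it towards A549 and 29.2% towards HEK293T. Those 8 genes also lay above all 6 HEK293T libraries, as did 26.4% of all genes, and 5 of the 10 were at 0 reads in HEK293T T12 (4.06% of all genes). The median log2 ratio was 5.03 over the 10 genes and 0.02 over all genes tested. PAPPA and PAPPA-AS1 enter these counts and the median as separate genes, though they may share most of their reads. Since the rule that chose the genes used this contrast, nothing is read from these counts. Fewer expressing cells and less RNA per cell cannot be told apart in these bulk libraries.

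**Figure D1:**
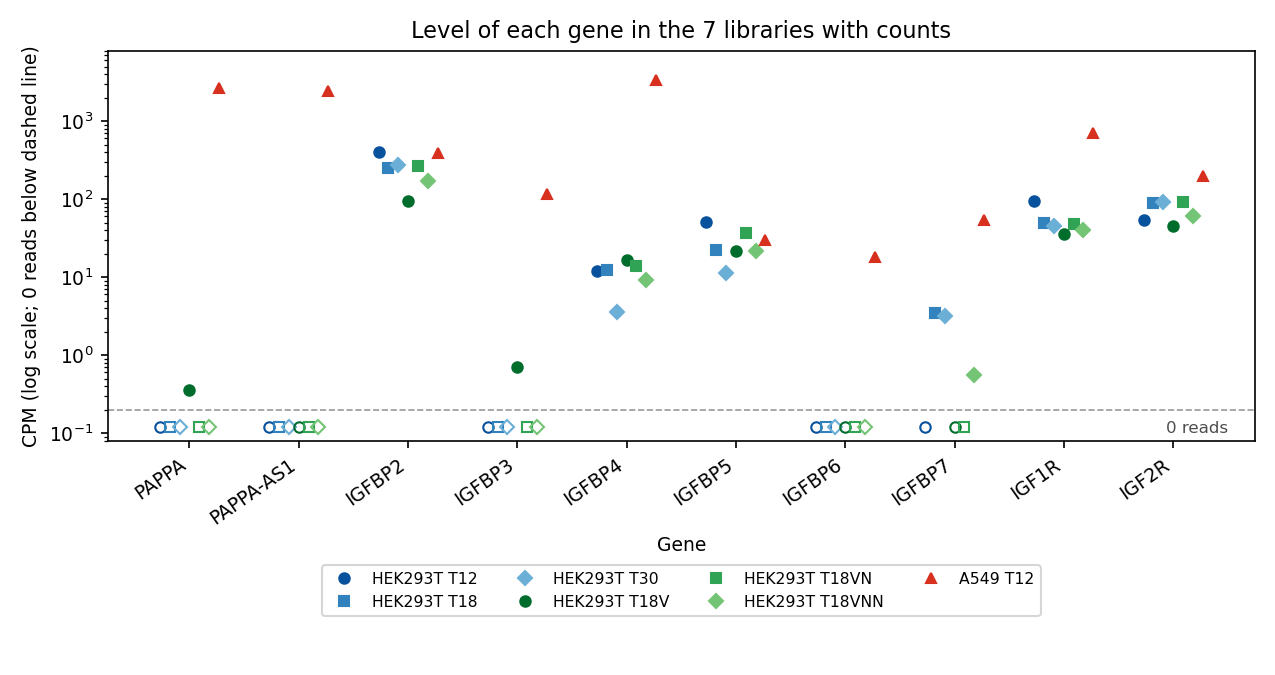
CPM of each of the 10 genes (log axis) in the 6 HEK293T libraries and the A549 T12 library, 1 point per library, with libraries at 0 reads as open symbols below the dashed line. The A549 triangle lies above all HEK293T points except for IGFBP2 and IGFBP5, where it falls among them.

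PAPPA (chromosome 9, 118916071 to 119164600, plus strand, NM_002581.4, with this and all later gene positions in hg19) had 4043 reads, 2699 CPM, in A549. It had 1 read in HEK293T T18V and 0 in each of T12, T18, T30, T18VN and T18VNN. HEK293T was thus under the floor throughout, and A549 was at least 2938-fold above the floor of T12. Among the 13305 genes with reads in A549, PAPPA ranked 28 by CPM and 301 per transcript length, by deposited FPKM. PAPPA-AS1 (119160436 to 119162885, minus strand, NR_103711.1) had 3698 reads, 2468 CPM, in A549 and 0 in all 6 HEK293T libraries, which puts A549 at least 2687-fold higher than the T12 floor.

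PAPPA-AS1 is a single exon, and its reverse complement matched bases 6794 to 9243 of the PAPPA transcript without a mismatch. This window lies wholly in the 5814-base last exon of PAPPA, after the coding sequence, which ends at base 5253. The sources used here do not say whether counting used strand. If it did not, the 3698 reads of PAPPA-AS1 are part of the 4043 reads of PAPPA, a share of 91.5% (95% Wilson interval 90.6 to 92.3), and 345 lay elsewhere on PAPPA. The window holds the run of 17 A shown above, which begins 323 bases after its start, and it ends 1716 bases before the end of the PAPPA transcript. The files give no read positions within the window, so reads of PAPPA and PAPPA-AS1 cannot be told apart, and whether priming at the run contributed was not tested.

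Leaving out the other members and genes that overlap a member, the 3 genes most alike to PAPPA over the 7 libraries, by root mean square difference of log2(CPM + 1) among 10134 genes, were ALDH1A1 (0.23), AKR1B10 (0.34) and KRT7 (0.41). They had 4082, 1571 and 1369.7 CPM in A549 and no more than 0.356 CPM in any HEK293T library.

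IGFBP4 (chromosome 17, 38599676 to 38613982, plus strand, NM_001552.2), the classical PAPPA substrate, had 5067 reads in A549, or 3382 CPM, and its deposited FPKM ranked 35 among the genes with reads there. In HEK293T its level was 11.9 CPM (T12), 12.3 (T18), 3.61 (T30), 16.7 (T18V), 14.1 (T18VN) and 9.18 (T18VNN), from 8 to 64 reads. A549 was 283-fold higher than HEK293T T12 (95% interval 207 to 399) and 202-fold higher than the highest HEK293T library, T18V. IGFBP4 overlaps no other gene in the table.

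IGFBP3 (chromosome 7, 45951844 to 45960871, minus strand, NM_001013398.1), the main IGF carrier of serum, had 173 reads, 115 CPM, in A549. It had 2 reads in HEK293T T18V and 0 in the other 5 HEK293T libraries. Against the floor it was at least 126-fold higher than in HEK293T T12. IGFBP6 (chromosome 12, 53491436 to 53496128, plus strand, NM_002178.2), which prefers IGF2 over IGF1, had 27 reads, 18.02 CPM (95% interval 11.9 to 26.2), in A549 and 0 in all 6 HEK293T libraries, at least 19.6-fold higher than T12. Its pattern was not distinctive: 6 other genes had the same counts in all 7 libraries, among them EPS8L3, KRT19 and LOC388242.

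IGFBP7 (chromosome 4, 57897237 to 57976551, minus strand, NM_001553.2), a relative with low affinity for IGFs, had 82 reads, 54.7 CPM, in A549. In HEK293T it had 18 reads with T18, 7 with T30, 2 with T18VNN and 0 with T12, T18V and T18VN, at most 3.46 CPM. A549 was at least 59.6-fold higher than HEK293T T12 against the floor and 15.8-fold higher than T18. The shorter entry NM_001253835.1 had 0 reads in every library, so all reads lay in the 3′ part that only the longer entry has. The last 92 bases of IGFBP7 overlap the end of POLR2B on the opposite strand. POLR2B had 62 reads in A549, so at least 20 of the 82 IGFBP7 reads lay outside it. In HEK293T T12, T18V and T18VN, POLR2B had 64, 85 and 188 reads while IGFBP7 had 0.

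IGFBP2 and IGFBP5 are neighbours on chromosome 2 whose 3′ ends face each other 7668 bases apart, and neither was 2-fold different between the lines. IGFBP2 (217498127 to 217529159, plus strand, NM_000597.2) had 396 CPM in A549. In HEK293T its level was 408 CPM (T12), 251 (T18), 270.3 (T30), 94.3 (T18V), 266 (T18VN) and 169 (T18VNN). The A549 value lay inside this range, and the ratio to HEK293T T12 was 0.973 (95% interval 0.882 to 1.07). All 4 IGFBP2 entries had the same count in each library, so its reads lay in the 3′ part that the entries share.

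IGFBP5 (217536828 to 217560272, minus strand, NM_000599.3), also cleaved by PAPPA, had 45 reads, 30.04 CPM, in A549. In HEK293T its level was 50.5 CPM (T12), 22.1 (T18), 11.3 (T30), 21.7 (T18V), 36.8 (T18VN) and 21.4 (T18VNN). A549 again fell within the HEK293T range, with a ratio to T12 of 0.594 (95% interval 0.418 to 0.831). Its log2 ratio was the lowest of the 10 genes at -0.73. The 3 genes most alike to IGFBP5 were ANAPC5 (root mean square difference 0.22), FGFRL1 (0.30) and NAE1 (0.34).

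The receptors were present in every library. IGF1R (chromosome 15, 99191768 to 99507759, plus strand, NM_000875.4) had 1057 reads, 706 CPM, in A549. In HEK293T its level was 95.5 CPM (T12), 49.2 (T18), 45.1 (T30), 36.3 (T18V), 48.0 (T18VN) and 40.3 (T18VNN). A549 was 7.38-fold higher than T12 (95% interval 6.50 to 8.41), and T12 was the highest HEK293T library. IGF1R shares its locus with IRAIN, which had 1 read in A549 and 5 to 26 reads in HEK293T, and with MIR4714, which had 0 in every library.

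IGF2R (chromosome 6, 160390131 to 160532536, plus strand, NM_000876.3) had 293 reads, 196 CPM, in A549. In HEK293T its level was 53.9 CPM (T12), 90.6 (T18), 92.96 (T30), 44.8 (T18V), 93.1 (T18VN) and 61.7 (T18VNN). A549 was 3.63-fold higher than T12 (95% interval 3.0 to 4.4) but 2.1-fold higher than T18VN, so its size differs with the HEK293T library taken. Within the IGF2R span, AIRN had 0 reads in every library and CHP1P2 had 3 in A549 and at most 22 in HEK293T.

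**Figure D2:**
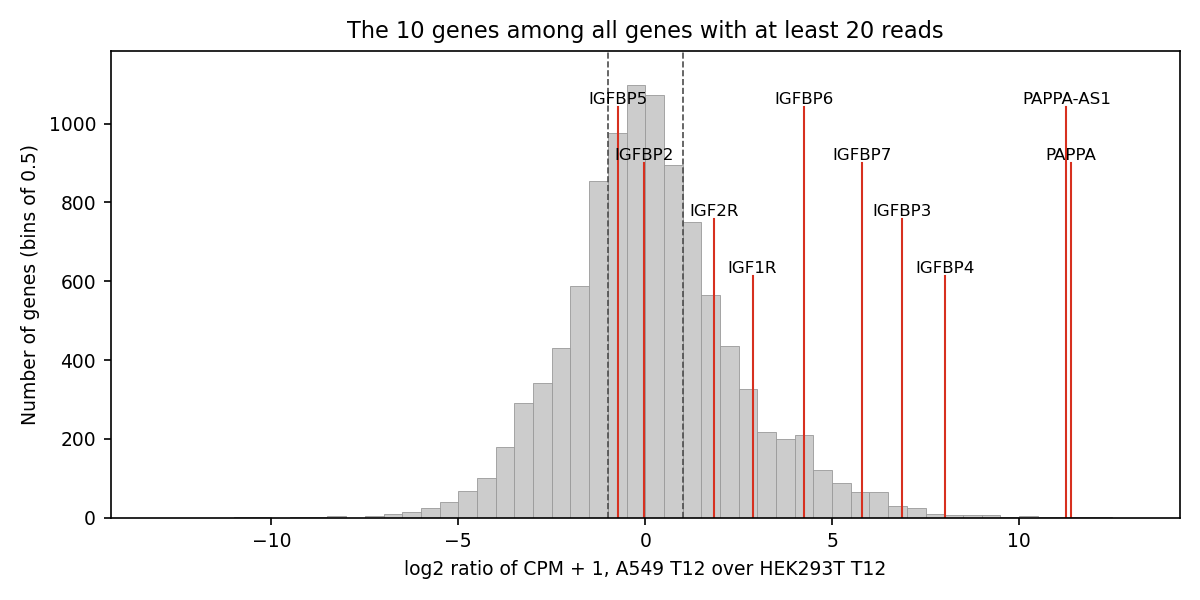
Histogram of the log2 ratio of CPM + 1 (A549 T12 over HEK293T T12) for the 10145 genes with at least 20 reads, with the 10 genes as red lines of arbitrary height and dashed lines at a 2-fold difference. PAPPA and PAPPA-AS1 lie at 11.40 and 11.27, IGFBP4 at 8.03, and IGFBP2 and IGFBP5 lie between the dashed lines.

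For an order of the genes by level, values per transcript length were taken, as the deposited FPKM. Where reads lie only in the 3′ part, as for IGFBP2 and IGFBP7, FPKM falls with the length of the transcript. The same holds for PAPPA in A549 if counting ignored strand, since 3698 of its 4043 reads then lay in 2450 of its 10970 bases. In CPM the order of PAPPA and IGFBP2 in A549 is the reverse of that in FPKM, at 2699 and 396 CPM. In HEK293T, IGFBP2 stood above the others with a median of 34.3 FPKM (22.1 to 52.3 over the 6 libraries). IGF2R followed at 1.21 FPKM (0.662 to 1.86), then IGFBP4 at 1.13 (0.189 to 2.81), IGFBP5 at 1.13 (0.211 to 1.66) and IGF1R at 1.01 (0.431 to 1.35). The ranges of these last 4 genes overlap, so their order is not resolved. IGFBP7 had at most 0.623 FPKM and IGFBP3 at most 0.101 FPKM in HEK293T.

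In A549 the order was led by IGFBP4 at 204 FPKM, followed by IGFBP2 at 37.3, PAPPA at 33.1, IGF1R at 7.76, IGFBP7 at 6.53, IGFBP3 at 5.91, IGFBP6 at 2.51, IGF2R at 1.87 and IGFBP5 at 0.648. PAPPA-AS1 was listed at 136 FPKM, but it is given no place in this order, since its reads cannot be told apart from those of PAPPA and are divided by 2450 bases, against 10970 for PAPPA. Of the summed FPKM of IGFBP2 to IGFBP7, IGFBP4 made up 79.4% and IGFBP2 14.5% in A549. In HEK293T, IGFBP2 made up 85.4% (T18V) to 96.8% (T30), and IGFBP4 0.827% (T30) to 9.69% (T18V). The FPKM ratio of IGF1R to IGF2R was 4.14 in A549, 2.03 in HEK293T T12 and 0.557 to 0.929 in the other 5 HEK293T libraries. As a factor, that ratio differed more between the T12 library and the other HEK293T libraries than between the lines at T12. As a plain difference it was the other way.

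**Figure D3:**
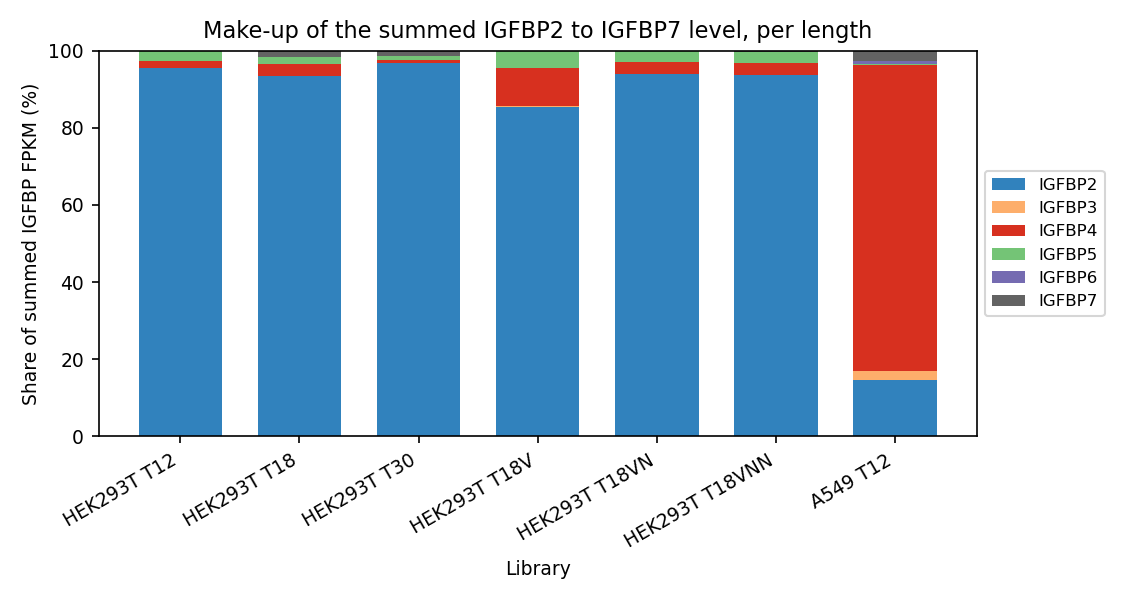
Share of the summed deposited FPKM of IGFBP2 to IGFBP7 (%) taken by each gene, 1 bar per library. IGFBP2 takes at least 85.4% in every HEK293T bar, and IGFBP4 takes 79.4% of the A549 bar.

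Promoter windows of RefSeq (GRCh38.p14) were found for 8 of the 10 genes; PAPPA-AS1 and IGFBP7 had none. In the 250 bases before the start, TATAAA occurred on either strand in PAPPA and IGFBP4 alone of these 8, and in 10.7% of 35116 windows of that length. The windows of PAPPA and IGFBP4 are printed since they are the 2 that hold this motif, with TATAAA in capitals, beginning 28 and 29 bases before the start.
PAPPA, chr9:116153541-116153790, plus strand: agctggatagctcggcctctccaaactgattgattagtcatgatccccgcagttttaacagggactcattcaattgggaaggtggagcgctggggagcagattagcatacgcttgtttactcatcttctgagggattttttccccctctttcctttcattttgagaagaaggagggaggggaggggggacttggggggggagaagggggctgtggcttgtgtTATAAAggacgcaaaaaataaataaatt
IGFBP4, chr17:40443200-40443449, plus strand: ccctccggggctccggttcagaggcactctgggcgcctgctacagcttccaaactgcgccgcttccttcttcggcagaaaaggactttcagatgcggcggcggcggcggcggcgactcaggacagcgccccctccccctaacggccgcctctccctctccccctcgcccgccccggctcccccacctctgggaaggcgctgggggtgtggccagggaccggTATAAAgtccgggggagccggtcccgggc
The GC box GGGCGG was found on either strand in 6 of the 8 genes, IGFBP4 included and PAPPA not, and in 42.6% of all windows. The motif TGANTCA, on either strand, was in 0 of the 8 and in 6.57% of all windows. A match is a description of the letters and not of a bound site.

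The comparison of primers in HEK293T asked whether an anchor at the primer's 3′ end changes the readout. No member passed the test. With edgeR's quasi-likelihood test of the 3 anchored against the 3 unanchored libraries, 0 of the 5 members that passed the filter on low counts had an adjusted p under 0.05. Over all 10887 genes tested, 1.35% did. Without adjustment, 1 of the 5 had a p under 0.05 (15.6% of all genes), and DESeq2 also called 0 after adjustment and 1 before it. In CPM, 0 of the 5 had all anchored libraries below (6.80% of all genes) or above (16.8%) all unanchored ones. PAPPA, PAPPA-AS1, IGFBP3, IGFBP6 and IGFBP7 did not pass the filter. Each primer is a single library, so the spread is between primers of a class and not between cultures.

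IGFBP2 had the lowest p. The 3 unanchored libraries averaged 309.7 ± 85.3 CPM (SD, n = 3), and the 3 anchored ones 177 ± 86.2 CPM (SD, n = 3). By edgeR this was a difference of -0.98 in log2 (SE 0.39) with an adjusted p of 0.251, and the classes overlapped, since T18VN lay above T18. IGF1R averaged 63.3 ± 28.0 CPM unanchored and 41.5 ± 5.94 CPM anchored (SD, n = 3 for both). Its log2 difference was -0.77 (SE 0.37), at an adjusted p of 0.353 by edgeR. IGF2R gave -0.43 (SE 0.38), IGFBP5 -0.22 (SE 0.53) and IGFBP4 0.34 (SE 0.60), with adjusted p of 0.660, 0.892 and 0.847 in the same edgeR test. The sign for IGFBP4 rested on T30 (log2 fold change -0.02 without it), and that for IGFBP5 on T12 (0.46 without it). The standard errors were derived from the log2 fold change and the F statistic of the test. At 0.37 to 0.60 they leave room for changes of 2-fold and more, so these values do not show that the primers act alike. All of these values are relative to reads on genes. Such reads made up 11.7 to 20.3% of the library total in unanchored libraries and 27.7 to 37.5% in anchored ones. Per library total (FPM), the values given in the last section do not show the negative signs, and no test was run in FPM.

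**Figure D4:**
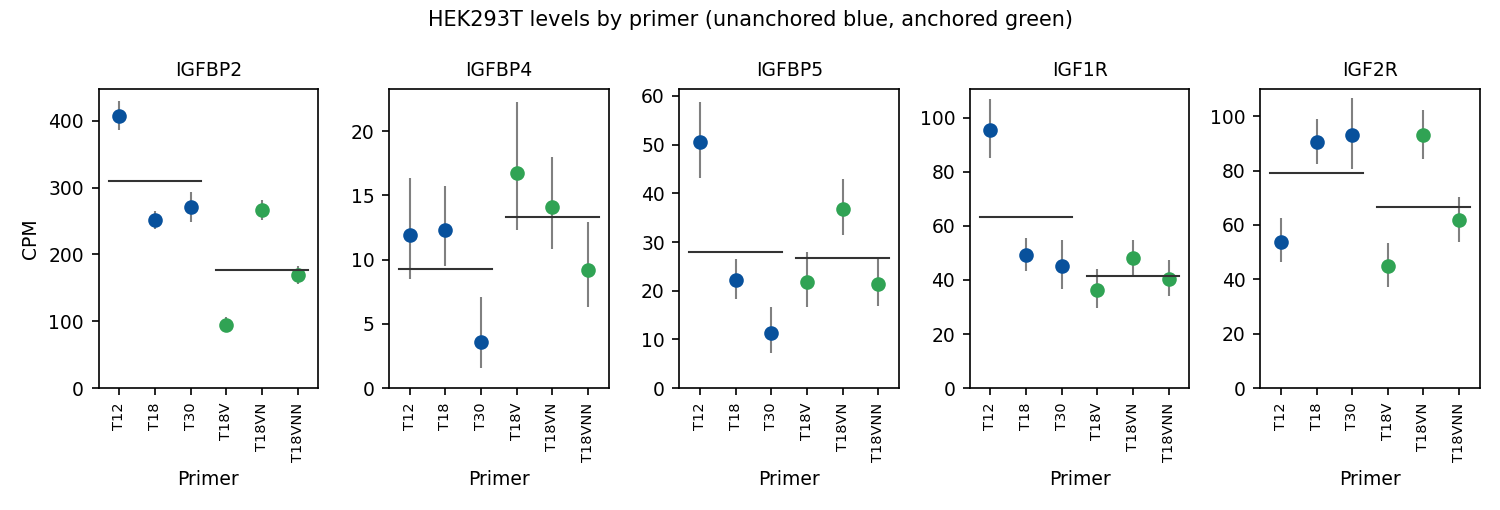
CPM of the 5 genes tested between primer classes in each HEK293T library (points, with exact 95% counting intervals as grey bars), and the mean of each class (lines). In CPM the classes overlap for each gene, and IGFBP2, IGFBP5 and IGF1R are highest with T12.

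Set against T12 one primer at a time, with at least 20 reads and a 2-fold threshold, the 5 genes gave these counts, in comparisons that share the T12 library. T18 was lower in 1 of the 5 (IGFBP5), where 13.0% of all genes were. T30 was lower in 3 (IGFBP4, IGFBP5 and IGF1R), against 22.1% of all genes. T18V was lower in 3 (IGFBP2, IGFBP5 and IGF1R), against 18.8%. T18VN was lower in 0, against 12.5%, and T18VNN was lower in 3 (IGFBP2, IGFBP5 and IGF1R), against 15.4%. These calls are in CPM. Per library total (FPM), T12 was at 70.4 (IGFBP2), 8.72 (IGFBP5) and 16.5 (IGF1R). T18V was at 35.4, 8.14 and 13.6 in the same order, and T18VNN at 46.9, 5.94 and 11.2. None of these anchored values was 2-fold lower than T12. T30 still was in FPM for IGFBP5 (1.32), IGF1R (5.27) and IGFBP4 (0.422 against 2.06). It also was for IGFBP2 (31.6), which CPM did not call. In CPM, none of the 5 genes was 2-fold higher than T12 with any primer. Of all genes, 16.2% (T18), 14.9% (T30), 21.2% (T18V), 24.4% (T18VN) and 23.8% (T18VNN) were. In FPM, IGFBP4 was at 6.27 with T18V against 2.06 with T12, and IGF2R at 26.1 with T18VN against 9.30 with T12. IGFBP5 and IGF1R, whose transcripts hold the runs of A shown above, had their highest CPM with T12, and so had IGFBP2, whose longest run is 4 A. In FPM, IGF1R was still highest with T12, but IGFBP2 (74.8) and IGFBP5 (10.3) were highest with T18VN. Whether the runs bear on these levels was not tested. The highest CPM over the 6 libraries was 2.08 times the lowest for IGF2R, 2.63 times for IGF1R, 4.32 times for IGFBP2, 4.48 times for IGFBP5 and 4.63 times for IGFBP4. On the log2(CPM + 1) scale these ranges were between 1.0 (IGF2R) and 2.1 (IGFBP2), and the median over all genes tested was 1.75.

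Further genes of the pathway were read from a list of 43 genes, of which 34 had at least 20 reads in A549 or HEK293T T12. Of these 34, 15 passed 2-fold towards A549 and 6 towards HEK293T (31.0% and 29.2% of all genes), with a median log2 ratio of 0.61 against 0.02 over all genes. Of the 21 genes past 2-fold, 20 lay outside the range of all 6 HEK293T libraries. The exception was INSR, the insulin receptor.

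The ligands were low or similar. IGF1 had 1 read in A549 and 0 in HEK293T, and INS had 0 in every library. IGF2 had 47.4 CPM in A549 and 9.93 to 74.4 CPM in HEK293T, and its span overlaps INS-IGF2. These ligands, and IGFBP1 with 49 reads in A549 and 0 in all HEK293T libraries, were named after their values were seen. PAPPA2, the other pappalysin, named for the same reason, had 0 reads in every library.

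Both stanniocalcins, which inhibit PAPPA, differed between the lines and in opposite directions. STC2 had 51.4 CPM in A549, against 388 CPM in HEK293T T12 and 244 to 444 CPM over the 6 HEK293T libraries, 7.55-fold lower (95% interval 5.99 to 9.63) than T12 and 4.75-fold lower than the lowest HEK293T library. STC1 had 75.4 CPM in A549, 0 in HEK293T T12 and at most 5.58 CPM in HEK293T, at least 82.1-fold higher than T12 and 13.53-fold above the highest HEK293T library.

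Of the 5 genes listed as other proteases, 4 were at least 2-fold higher in A549 and 0 lower, where 31.0% and 29.2% of all genes were. PRSS23, a secreted serine protease, stood at 523 CPM in A549 against 3.06 CPM with T12 in HEK293T, 171-fold higher (95% interval 92.3 to 357), but 31.2-fold above the highest HEK293T library. CTSD, a lysosomal protease that mannose 6-phosphate receptors carry, had 322 and 31.8 CPM, 10.1-fold higher. M6PR, the smaller of these receptors, had 70.1 and 22.4 CPM, 3.14-fold higher, but its span overlaps PHC1.

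Among the receptor adaptors, IRS1, which binds activated IGF1R, had 163 CPM in A549, 0 in HEK293T T12 and at most 9.45 CPM in HEK293T, at least 177-fold higher than T12 and 17.2-fold above the highest HEK293T library. IRS2, a related adaptor, reached 461 CPM in A549 against 8.88 CPM with T12 in HEK293T, 51.9-fold higher (95% interval 35.8 to 78.1), but 14.7-fold above the highest HEK293T library. SHC1, an adaptor, had 679 and 158 CPM, 4.30-fold higher, but 2.53-fold above the highest HEK293T library. PIK3R2, a regulatory subunit of PI 3-kinase, had 68.7 and 27.6 CPM, 2.49-fold higher, but 1.19-fold above the highest HEK293T library. Lower in A549 were GRB10, an adaptor that restrains IGF1R and insulin receptor signalling, at 74.1 and 255 CPM (3.45-fold), and FOXO1, a transcription factor that AKT holds out of the nucleus, at 34.7 and 167 CPM (4.81-fold). Against the lowest HEK293T library, GRB10 was 2.6-fold and FOXO1 2.5-fold lower. INSR was at 34.7 CPM in A549 against 82.4 CPM with T12 in HEK293T, 2.37-fold lower, but 25.97 CPM in the lowest HEK293T library. All of these ratios lack a replicate check.

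**Figure D5:**
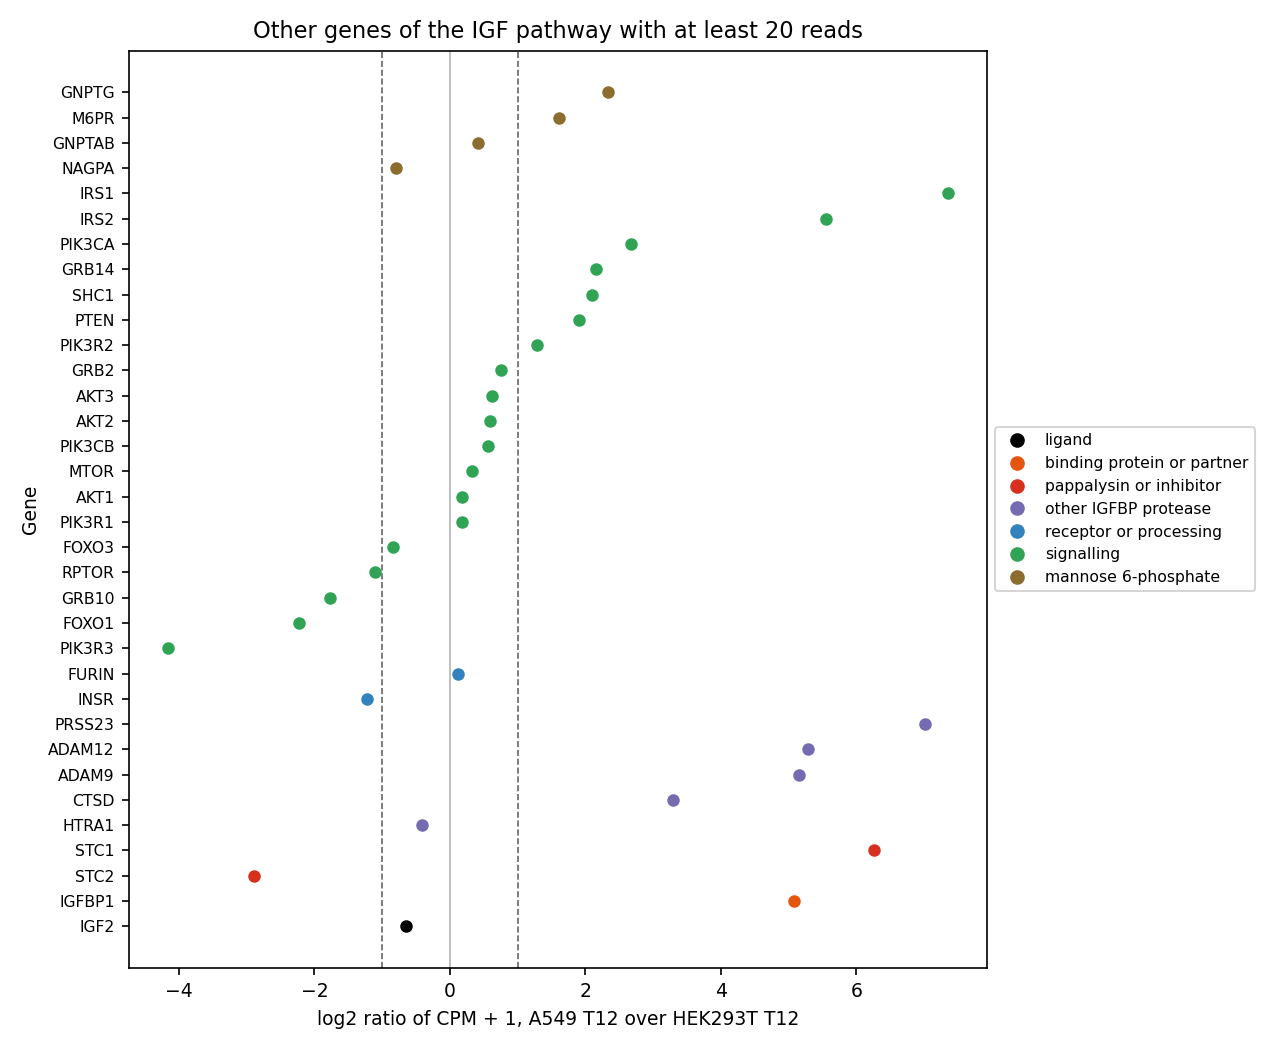
The log2 ratio of CPM + 1, A549 T12 over HEK293T T12, of the 34 pathway genes with at least 20 reads, coloured by role, with dashed lines at a 2-fold difference. IRS1, PRSS23 and STC1 lie furthest to the right, and PIK3R3, which had 0 reads in A549 and is named after its value was seen, lies furthest to the left, followed by STC2.

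Between primer classes in HEK293T, 31 of the 43 genes were tested and 0 had an adjusted p under 0.05 with edgeR, against 1.35% of all genes. Without adjustment 3 had a p under 0.05, where 15.6% of all genes did. With DESeq2, 3 had a p under 0.05 before adjustment, and that share over all genes was not computed. DESeq2 gave an adjusted p to 25 of the pathway genes and called 2 of them. This is near the 6.98% called of all genes given one. Those 2 were INSR, lower with anchored primers (log2 difference -1.28), and AKT2, a kinase that acts below the receptors, higher with them (1.51). They are named after their values were seen. AKT2 had 120.9 to 143.9 CPM without an anchor and 184 to 794 CPM with one, and edgeR gave adjusted p of 0.107 for INSR and 0.136 for AKT2.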

How the data were processed

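Per the submitters' processing notes, the tools included cutadapt 2.10, Trimmomatic 0.39, HISAT2 2.2.1 and SAMtools, with hg19. The annotation release, strand use and treatment of reads with several matches are not given in the sources used here. The deposited tables hold a read count per RefSeq transcript. FPM, a deposited signal, is that count per a library total, and the deposited FPKM is FPM per transcript length. Accessions were matched to RefSeq symbols (60133 of 61177 entries) and the entry with most reads was kept per gene. Groups come from the titles. Anchored and unanchored primers were tested on the counts in edgeR 4.0.16 under R 4.3.3 (quasi-likelihood test after filterByExpr and TMM, Benjamini-Hochberg adjustment at 0.05), which was tested on simulated data; DESeq2 1.42.0 was an alternative. A549 and HEK293T were compared on log2(CPM + 1) for genes with at least 20 reads. The poly(T) and coverage files hold no value per gene and were not used. The members, gene lists and alternatives were chosen with earlier results of these data known. Pathway genes were named if at least 2-fold apart with at least 100 reads (at most 12, by size, of 13), and alike genes by the 3 smallest differences. Alternatives covered scaling, transcript kept, pseudocount, thresholds and leaving out each primer. Most samples had no second culture, so p-values measure only the spread between these samples.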

Additional observations from a re-analysis of the deposited data

Results flagged for a closer look

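In CPM, IGF1R in HEK293T had a library far from the rest: 95.5 CPM with T12, against 49.2 CPM in the next highest library. This gap was 0.782 of the whole range, above Dixon's 95% critical value for 6 samples. Of 6 genes checked over the HEK293T libraries, IGF1R was the 1 flagged, and chance flags about 1 in 20 such groups. Per library total (FPM), T12 lay closer to the next library, at 16.5 against 13.6 (T18V), with T30 lowest at 5.27. The check was run in CPM and not in FPM. T12 is the HEK293T library to which A549 was compared, so IGF1R in A549 stood 7.38-fold above T12 and further above the other 5 libraries.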

How the results depend on the processing

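The count of 8 genes at least 2-fold higher in A549 stayed within 1.5 times under 8 of 9 alternatives. With the genes that overlap another gene left out it was 3, since 5 of the 10 overlap another gene, and these 3 are IGFBP3, IGFBP4 and IGFBP6. The count of genes at least 2-fold lower was 0 under all 9. TMM scaling moved the median of all genes to -0.24 and scaling to the deposited library total to -0.26; IGFBP5 was then at -0.997 and -0.95, and IGFBP2 at -0.31 and -0.39, each about as far below as the median moved. Over all genes, 3146 were at least 2-fold higher and 2959 lower in the main scaling, 2711 and 3445 with TMM, and 2249 and 3070 with the library total. Against the library total, where the pseudocount weighs more, the log2 ratio of PAPPA was 8.51 and that of IGFBP6 1.78. No member was called between primer classes under any of 11 alternatives. The sign of the log2 fold change turned for IGFBP4 without T30 (-0.023) and for IGFBP5 without T12 (0.46), and in none of the other 53. Leaving out 1 library at a time gave -0.023 to 0.60 for IGFBP4 and -0.59 to 0.46 for IGFBP5. Scaling to the deposited library total was not among the 11 alternatives. In FPM, unanchored and anchored libraries spanned 31.6 to 70.4 and 35.4 to 74.8 for IGFBP2. They spanned 5.27 to 16.5 and 11.2 to 13.6 for IGF1R, and 9.30 to 18.4 and 16.8 to 26.1 for IGF2R. For IGFBP5 they spanned 1.32 to 8.72 and 5.94 to 10.3. For IGFBP4 they spanned 0.422 to 2.50 and 2.55 to 6.27, so all its anchored libraries lay above all unanchored ones in FPM. The share of all genes set apart in this way was not computed in FPM. For IGFBP2, IGFBP5 and IGF2R, the lowest and the highest anchored values in FPM lay above the lowest and the highest unanchored ones. For IGF1R, T18 (10.0) and T30 (5.27) lay below all anchored libraries, and T12 (16.5) lay above them. These FPM values thus do not show the negative signs that these genes had in the main test. No test was run in FPM. Over all genes the edgeR calls ranged from 45 (without T18VNN) to 556 (no filter on low counts), with 147 in the main test and 596 with DESeq2. Genes at 0 reads in HEK293T are limited by depth to the floor of 3 reads. No paired analysis was possible because the T12 libraries with counts are replicate 1 in HEK293T and replicate 2 in A549, and the other primers have no second library.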
